A study of Mus musculus with 4 samples.

Results

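The IL-18 and IL-1 receptor axis was followed through 10 genes: the cytokine genes Il18, Il1b and Ifng, the IL-18 antagonist gene Il18bp, the receptor genes Il18r1, Il18rap, Il1r1 and Il1rl1, and the inflammasome genes Casp1 and Pycard. Every probe set whose platform gene symbol was among these names was taken, which gave 10 probe sets for 9 genes out of 22690 probe sets on the array. Pycard had 2 probe sets and the other 8 genes had 1 each. No probe set carried the symbol Il1rl1 in the annotation used, so that gene was not analysed here.

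Left ventricular RNA was measured on 4 arrays, 1 for each of sham wild type, banded wild type, sham IL-18 null and banded IL-18 null hearts. The IL-18 null mice lack the cytokine itself, and banding is a transaortic constriction that loads the left ventricle with pressure. Each array carried RNA pooled from several hearts: 6 mice for banded IL-18 null, 5 for sham IL-18 null, and 5 to 6 per group by the series design. The banded IL-18 null pool was labelled as banded for 1 week and as on a C57BL/6 background. The sources used here do not give the strain, banding time or exact pool size of the wild-type mice, nor the age of any. The series asks what IL-18 does to gene expression in hypertrophy from pressure overload. With 1 pooled array per group, a difference between arrays has no replicate check and no error, and no pairwise difference was tested.

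IL-18 and IL-1β are made as inactive precursors. A danger-sensing protein complex, the inflammasome, brings the adaptor ASC (the product of Pycard) together with caspase-1 (Casp1), which cuts the precursors into active cytokines. IL-18 then binds a receptor of an α chain (Il18r1) and an accessory chain (Il18rap), IL-1β binds the type 1 IL-1 receptor (Il1r1), and both receptors signal through MyD88 and IRAK kinases to NF-κB. In lymphoid cells IL-18 is best known for driving interferon-γ (Ifng) together with IL-12, and in the heart both cytokines have been linked to hypertrophy and loss of contractile function.

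Of the 10 probe sets, only those of Il1b, Il1r1 and the first of Pycard reached 64 intensity units on any array, and all 3 were highest on the banded IL-18 null array. Il1b stood out by far: it lay under 64 on 3 arrays and at 1368.5 on the banded IL-18 null array. Pycard was 2.81-fold and Il1r1 1.86-fold higher in the banded IL-18 null heart than in the sham IL-18 null heart. Neither was higher after banding in wild type. The IL-18 arm of the axis, namely the cytokine, both receptor chains and the binding protein, lay under 64 on every array. So did Casp1 and Ifng.

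The value 64 (6 on the log2 scale) was set as the floor together with the choice of genes. Lower values were set to 64 before a difference was taken, and such a difference is a bound, written as "at least". A difference is the log2 intensity on the first array named minus that on the second. A probe set was compared between 2 arrays if it reached 64 on either, and 2-fold is a difference of 1.

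**Figure D1:**
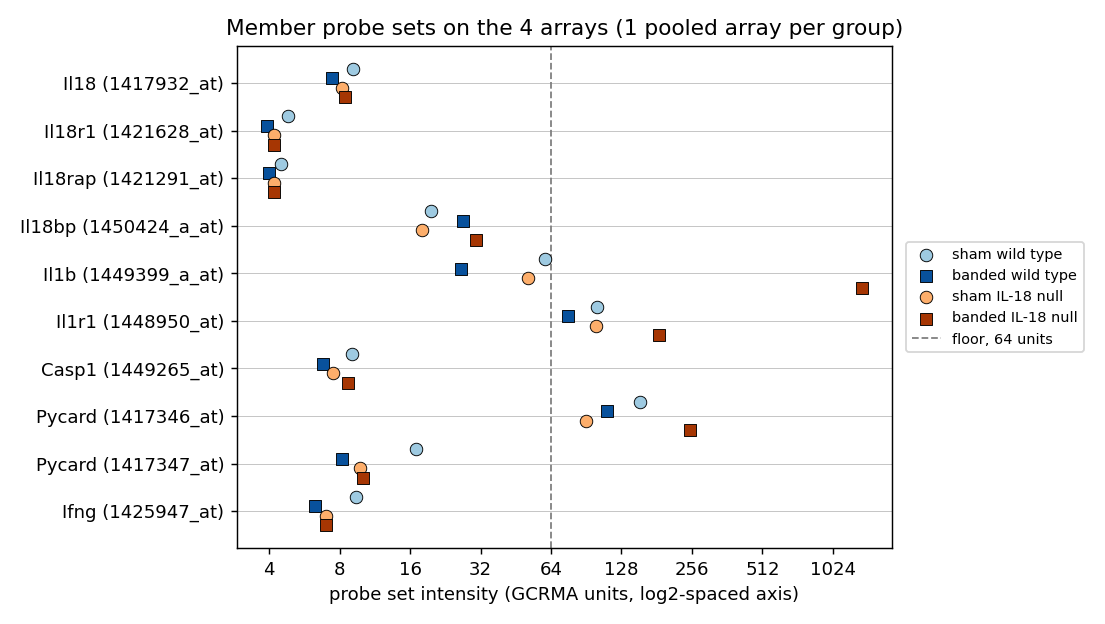
Intensity (GCRMA units, log2-spaced axis) of each of the 10 member probe sets on the 4 arrays, with 1 point per pooled array and the floor of 64 as a dashed line; points are spread vertically only to show overlaps. Il1b at 1368.5 on the banded IL-18 null array is the farthest point from its own probe set's other values, and 7 probe sets lie left of the line on all 4 arrays.

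Il18, the deleted gene, was at 9.1 in sham wild type, 7.4 in banded wild type, 8.2 in sham IL-18 null and 8.4 in banded IL-18 null. The null arrays lay between the wild-type arrays, so this probe set (1417932_at, from NM_008360) could not check the genotype labels. Every statement about genotype rests on the labels.

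Il18bp, which encodes a secreted decoy that binds and neutralises IL-18, was at 19.6, 26.8, 17.9 and 30.7 in sham wild type, banded wild type, sham IL-18 null and banded IL-18 null. The banded array of each genotype gave the higher value, but all 4 lay under 64 and the difference was not counted. Il18r1, the ligand-binding chain, was at 4.8, 3.9, 4.2 and 4.2 in the same order of arrays. Il18rap, the accessory chain, was at 4.5, 4.0, 4.2 and 4.2. The values of both chains were the same to the first decimal on the IL-18 null arrays.

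Casp1, the protease that matures both cytokines, was at 9.0 in sham wild type, 6.8 in banded wild type, 7.5 in sham IL-18 null and 8.7 in banded IL-18 null. Ifng, the cytokine that IL-18 induces in T and NK cells, was at 9.4, 6.3, 7.0 and 7.0 in that order. The second Pycard probe set (1417347_at) was at 17.0, 8.2, 9.8 and 10.1. None of these 3 was higher with banding in both genotypes.

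The 7 probe sets under 64 on every array, which are those of Il18, Il18r1, Il18rap, Il18bp, Casp1 and Ifng and the second of Pycard, ranged from 3.9 to 30.7. In 6 of them the highest value was on sham wild type and the lowest on banded wild type; Il18bp was the exception. The same order was common among all probe sets of this kind. Of 13014 probe sets with 1 gene symbol that lay under 64 on all arrays, 81.3% had their highest value on sham wild type and 79.4% their lowest on banded wild type. These are 63.9% of the probe sets with 1 gene symbol. The 6 members therefore showed the order that most dim probe sets on these arrays showed, and their small differences were not read as changes. A value under 64 does not show that a transcript was absent.

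Il1b, which encodes IL-1β, was at 60.1 in sham wild type, 26.3 in banded wild type, 51.2 in sham IL-18 null and 1368.5 in banded IL-18 null. A single array was high and the other three lay under the floor. The banded IL-18 null heart was at least 21.4-fold above the sham IL-18 null heart (log2 difference at least 4.42) and at least 21.4-fold above the banded wild-type heart. The bounds are equal because both were taken against the floor; without a floor the log2 differences were 4.74 and 5.70. In wild type both values lay under 64, with the banded one the lower, so no banding difference was counted there.

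Pycard, the inflammasome adaptor, was at 152.9 in sham wild type, 110.7 in banded wild type, 89.9 in sham IL-18 null and 252.2 in banded IL-18 null by its first probe set (1417346_at). The banded IL-18 null array was the highest and the sham IL-18 null array the lowest. The log2 difference with banding was 1.49 in IL-18 null and -0.47 in wild type. Between genotypes it was -0.77 in sham hearts and 1.19 in banded hearts. The second probe set, made from the same sequence record (BG084230), lay under 64 throughout and did not show this order, so the Pycard result rests on 1 probe set.

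The sequences before the start sites of Il1b and Pycard are shown because these are the members at least 2-fold higher in the banded IL-18 null heart than in the sham IL-18 null heart. Each is the 250 bases before a transcription start in RefSeq (GRCm38.p6), 5′ to 3′ on the gene's strand; all 10 genes of the axis had an entry. Capitals mark matches on either strand to the C/EBP letters TTNNGNAA and to the TATA box letters TATAAA.
Il1b, GRCm38.p6 chr2:129371140-129371389, minus strand: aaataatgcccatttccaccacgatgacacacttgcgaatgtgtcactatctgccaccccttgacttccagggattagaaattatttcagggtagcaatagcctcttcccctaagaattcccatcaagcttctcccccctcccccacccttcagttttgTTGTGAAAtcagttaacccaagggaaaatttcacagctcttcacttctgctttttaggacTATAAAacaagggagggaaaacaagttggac
Pycard, GRCm38.p6 chr7:127993868-127994117, minus strand: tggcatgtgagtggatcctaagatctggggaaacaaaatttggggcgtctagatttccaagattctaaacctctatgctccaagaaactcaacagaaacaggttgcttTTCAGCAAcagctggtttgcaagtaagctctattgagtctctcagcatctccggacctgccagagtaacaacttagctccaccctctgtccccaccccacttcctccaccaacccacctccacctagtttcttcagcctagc
Il1b had 1 C/EBP match, TTGTGAAA, which begins 91 bases before the start, and 1 TATA box that begins 31 bases before it. Pycard had 1 C/EBP match, TTCAGCAA, beginning 142 bases before its start, and no TATAAA. Neither window held a match to the NF-κB consensus (searched by name, on both strands), to the AP-1 letters TGANTCA or to the STAT letters TTCNNNGAA. Of 32851 such windows, 36.8% held the C/EBP letters, 12.4% the TATA box, 7.25% the NF-κB consensus, 6.75% the AP-1 letters and 7.02% the STAT letters. The Il1r1 table entries give 2 starts, with 2 C/EBP matches before the first. Before the second lie 1 C/EBP and 1 NF-κB match, which overlap. A match describes letters only, and a missing match says nothing of a factor's binding elsewhere.

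Il1r1, the signalling receptor for IL-1α and IL-1β, was at 100.9 in sham wild type, 75.7 in banded wild type, 99.5 in sham IL-18 null and 185.5 in banded IL-18 null. The sham arrays lay close together, the banded wild-type array was the lowest and the banded IL-18 null array the highest. The log2 difference with banding was 0.90 in IL-18 null and -0.41 in wild type, both short of 2-fold. Between genotypes it was -0.02 in sham hearts and 1.29, or 2.45-fold, in banded hearts. In the RefSeq gene table Il1r2, Il1r1, Il1rl2, Il1rl1, Il18r1 and Il18rap follow each other on chromosome 1 with no other protein-coding gene starting between them. Il1r1 alone of the 5 analysed reached 64 on these arrays.

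In IL-18 null banding, 3 of the 10 member probe sets entered; 2 of these were at least 2-fold higher (Il1b and Pycard) and 0 lower. Il1b entered through its high array alone, and with its value there it could only count as higher. The same counts over all 6743 probe sets with 1 gene symbol that entered were 6.64% higher and 4.2% lower. Among the 6120 probe sets at or above 64 on both IL-18 null arrays, 1.76% were higher by as much as Pycard or more, and 7.34% by as much as Il1r1 or more. Set against wild type, the banded IL-18 null heart was at least 2-fold higher in 3 of 3 members that entered, against 5.11% of all 7039 probe sets higher and 10.9% lower. Here too Il1b entered through its high array alone and could only count as higher. Of the 6110 measured on both banded arrays, 1.96% were higher by as much as Il1r1 or more and 2.7% by as much as Pycard or more. With the floor at log2 7 the log2 differences of Pycard became 0.98 in both comparisons and that of Il1r1 between banded hearts 0.54, so Il1b alone stayed past 2-fold.

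In wild-type banding, 0 of the 2 members that entered (Il1r1 and Pycard) were 2-fold higher or lower, where 24.9% of 7200 probe sets were higher and 11.5% lower. After quantile normalization Pycard was at -1.03 and Il1r1 at -0.99. Between the sham hearts, again 0 of 2 were past 2-fold, where 18.4% of 6797 probe sets were higher in IL-18 null and 6.02% lower. There Pycard moved from -0.77 to -1.12 after quantile normalization, and Il1r1 from -0.02 to 0.12 after cyclic loess. Both of these comparisons use the sham wild-type array, and wild-type banding uses the banded one as well. On sham wild type the 3′ end of Gapdh exceeded the middle by 4.61 on the log2 scale, against -0.16 in banded wild type, 2.73 in sham IL-18 null and 1.66 in banded IL-18 null. For Actb the values were 4.88, 2.01, 4.69 and 4.57. Against the 5′ end the differences were 4.96, 0.21, 5.13 and 4.36 for Gapdh and 5.81, 1.92, 3.04 and 2.92 for Actb. Banded wild type was the lowest array in all 4 of these comparisons. It also enters the comparison of the banded hearts, in which 3 of 3 members were higher, Il1b through its high array alone. The part of this 3′ bias in the members' differences was not tested.

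Of models that hold both surgery and genotype as terms, an additive fit, made by limma, was the only one with a residual degree of freedom (1). This fit takes the banding response as equal in both genotypes, so any difference between the responses counts as noise. It therefore cannot decide on a gene that is high on 1 array alone, as Il1b was. The estimate for Il1b was 1.77 ± 1.52 (SE, log2) for surgery and 2.74 ± 1.52 for genotype, with limma adjusted p-values of 1.0 for both. Those for Il1r1 and Pycard were between 0.21 and 0.64, also with adjusted p-values of 1.0. The fit called 0 of 7366 probe sets (0.0%) for either term; at an unadjusted p under 0.05 limma gave 106 (1.44%) for surgery and 14 (0.19%) for genotype, and no member was among them. With 1 array per group, the members' differences are descriptions of these 4 arrays.

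**Figure D2:**
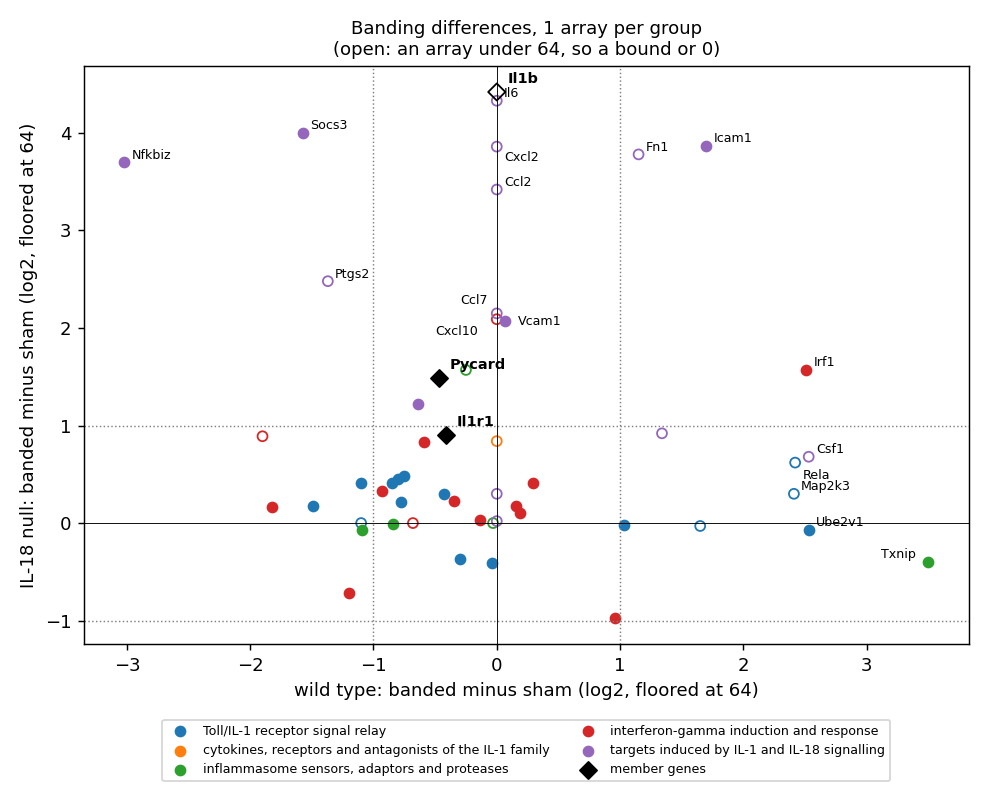
Log2 difference of banded minus sham in wild type (horizontal axis) and in IL-18 null (vertical axis) for the 3 member genes that reached 64 and for the genes of 5 pathway lists, values floored at 64, with 1 array per group. Open symbols have an array under 64 and are bounds or 0; dotted lines mark 2-fold. Il1b, Pycard and Il1r1 lie above 0 in IL-18 null and at or below 0 in wild type.

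The rest of the pathway was described through 5 gene lists, each gene by its brightest probe set. Of the other cytokines, receptors and antagonists of the IL-1 family, 8 of 12 were on the array and only Il33 reached 64. Il33 encodes an alarmin and is the ligand of the receptor encoded by Il1rl1. It was at 24.0 in sham wild type, 17.4 in banded wild type, 18.4 in sham IL-18 null and 114.8 in banded IL-18 null, a difference of at least 0.84 with banding in IL-18 null. It was thus another gene of the family with its single high value on the banded IL-18 null array. Il1a, the other IL-1 agonist, lay between 4.4 and 5.5, and Il1rn, which encodes the receptor antagonist, between 7.5 and 13.1. Il1rap, the chain that Il1r1 needs to signal, lay between 13.9 and 35.7.

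Of inflammasome sensors, adaptors and proteases, 14 of 24 were on the array and 5 reached 64. In IL-18 null banding 1 of the 4 that entered was 2-fold higher and 0 lower (median -0.04), against 6.98% and 2.53% of all genes and a median of 0.08. That gene was Casp8, an initiator caspase, at 112.9, 95.0, 63.3 and 190.0 in sham wild type, banded wild type, sham IL-18 null and banded IL-18 null. Casp8 thus entered through banded IL-18 null alone and could count as higher but not as lower. Of the 3 genes at or above 64 on both IL-18 null arrays, 0 passed 2-fold in either direction. The sensor Nlrp3 lay under 64 on every array, with its highest value, 13.9, on banded IL-18 null. Casp4, which encodes the caspase that senses lipopolysaccharide inside cells, was at 22.0, 14.6, 18.3 and 48.4, also under 64. In wild-type banding 1 of 5 was higher and 1 lower (median -0.25), against 21.7% and 12.8% of all genes and a median of -0.08. Txnip, a thioredoxin-binding protein that has been linked to Nlrp3, was the higher one, at 279.0 in sham wild type and 3146.6 in banded wild type. It was also at 3403.0 in sham IL-18 null and 2582.0 in banded IL-18 null, so sham wild type was the array that differed. Nek7, a kinase that binds Nlrp3, was the lower one at -1.09, and the other probe set of Nek7 that entered was at least 2-fold higher. With cyclic loess Nek7 was at -0.94.

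The relay from the Toll/IL-1 receptors to NF-κB had 20 of 25 genes on the array, and 15 reached 64. In IL-18 null banding 0 of 14 were past 2-fold in either direction (median 0.26), where 6.98% of all genes were higher and 2.53% lower. Between the banded hearts it was 0 of 14 as well (median 0.20), where 5.7% of all genes were higher and 7.74% lower (median 0.11). After quantile normalization 1 of the 14 was higher there. Of the other relay probe sets that entered, 1 each of Map3k7 and Tab2 fell past 2-fold with banding in IL-18 null. Those of Irak1 (3) and Peli1 (1) stayed within 2-fold there. In wild type those of Map3k7 and Tab2 rose past 2-fold, as did 1 of Irak1. Another 2 of Irak1 and 1 of Peli1 fell that far. The list counts use the brightest probe set of each gene alone. In wild-type banding 5 of 15 were higher and 3 lower (median -0.43), against 21.7% and 12.8% of all genes and a median of -0.08; after quantile normalization 4 were higher and 7 lower. The higher ones were Ube2v1 (2.53) and Ube2n (1.03), which together make ubiquitin chains for Traf6 signalling, Rela (at least 2.42), the NF-κB subunit, Map2k3 (at least 2.41), a kinase of p38, and Tollip (at least 1.65), an inhibitor of receptor signalling. All 5 also passed 2-fold between the sham hearts, higher in IL-18 null (16.3% of all genes were higher there and 6.29% lower), and both comparisons subtract sham wild type; after quantile normalization Ube2n was within 2-fold in both (0.72 and 0.88). The lower ones were Map2k4 (-1.49), Peli1 (-1.10, or -0.89 with cyclic loess) and Tab3 (-1.10, a bound). Rela, Map2k3 and Tollip entered through banded wild type alone, and between the sham hearts through sham IL-18 null alone, so they could not count as lower. Tab3 entered through sham wild type alone and could not count as higher. Of the 11 genes at or above 64 on both wild-type arrays, 2 were higher and 2 lower (18.2% each), against 17.0% and 14.0% of 4047 genes. Myd88, the adaptor shared by the IL-1 and IL-18 receptors, lay between 3.5 and 4.7, and Traf6 between 4.0 and 4.7, both under 64 throughout.

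Genes that IL-1 and IL-18 signalling is known to induce had 23 of 24 on the array, and 15 reached 64. In IL-18 null banding 15 of the 23 entered, 7 of them (Il6, Ccl2, Ccl7, Cxcl2, Ptgs2, Lcn2 and Bcl3) only through the banded IL-18 null array, so that these 7 could count as higher but not as lower; 5 of the 7 passed 2-fold. The other 8 were at or above 64 on both IL-18 null arrays, and 6 of these 8 (Icam1, Vcam1, Nfkbia, Nfkbiz, Socs3 and Fn1) were at least 2-fold higher and 0 lower, against 6.16% and 2.41% of the 4477 genes at or above 64 on both. Between the banded hearts the same 7 genes entered through banded IL-18 null alone. Of the other 8, 6 were higher in IL-18 null (Cxcl1, Icam1, Vcam1, Nfkbiz, Socs3 and Fn1) and 1 lower, against 4.92% and 6.65% of 4454 genes; of all genes that entered, 5.7% were higher and 7.74% lower. Both comparisons share the banded IL-18 null array. In wild-type banding 4 of 9 were higher, 3 of these through banded wild type alone, and 3 lower, against 21.7% and 12.8% of all genes; after quantile normalization 2 of 10 were higher and 3 lower. Many of these genes are induced by other signals as well. The list was also chosen with earlier results of these data known, so its counts are not independent of those results.

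Several of them had the pattern of Il1b. Il6, the acute-phase cytokine gene, was at 62.1 in sham wild type, 12.5 in banded wild type, 7.6 in sham IL-18 null and 1286.0 in banded IL-18 null. Cxcl2, a chemokine for neutrophils, was at 46.2, 9.5, 6.1 and 929.8 in the same order. Ccl2, a chemokine for monocytes, was at 32.4, 34.9, 29.8 and 682.9. All 3 lay under 64 on every array but banded IL-18 null, as Il1b did, and so did the related chemokine gene Ccl7, whose banding difference in IL-18 null was at least 2.15.

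Other targets differed from Il1b in that sham wild type was high too. Nfkbiz, a nuclear IκB protein induced by IL-1, was at 748.2 in sham wild type, 92.5 in banded wild type, 88.1 in sham IL-18 null and 1145.4 in banded IL-18 null. Ptgs2, the inducible cyclooxygenase, was at 165.8, 21.3, 27.6 and 357.0. Socs3, a feedback inhibitor of cytokine receptors, was at 561.2, 188.8, 328.3 and 5263.4. Each was therefore higher with banding in IL-18 null and lower in wild type; of the other Socs3 probe sets, the 2 that entered passed 2-fold in the same direction in IL-18 null banding. Another pattern was that of Icam1, which encodes an endothelial adhesion molecule, at 83.3, 270.9, 74.2 and 1088.0, and of Fn1 (fibronectin) at 48.7, 141.9, 87.1 and 1193.5. These were higher in the banded heart of each genotype, though Fn1 in wild type was at 0.93 after quantile normalization. Vcam1, another adhesion molecule, was 2.07 higher with banding in IL-18 null and 0.07 in wild type; its other probe set that entered in IL-18 null was within 2-fold. Cxcl1 was highest in banded IL-18 null at 1005.9 but already at 533.0 in sham IL-18 null. Csf1, a macrophage growth factor, was the gene lower in IL-18 null between the banded hearts (-1.43), at 369.5 in banded wild type and 136.7 in banded IL-18 null.

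**Figure D3:**
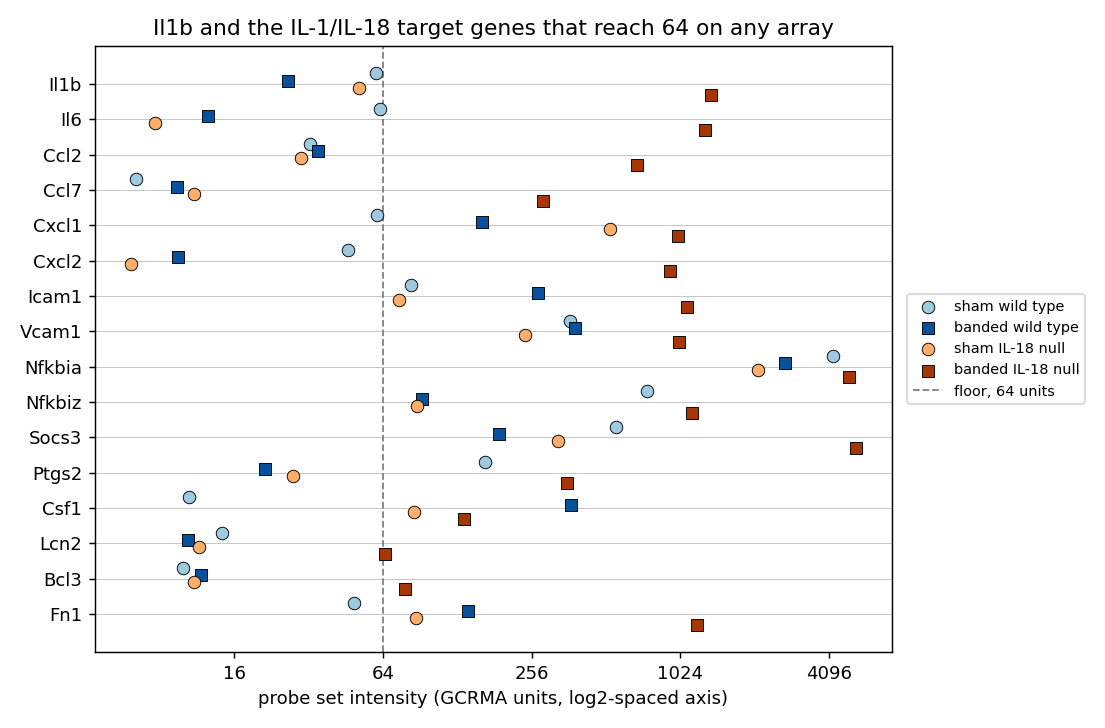
Intensity (GCRMA units, log2-spaced axis) of Il1b and of the 15 IL-1 and IL-18 target genes that reached 64 on any array, 1 point per pooled array, with the floor of 64 dashed. Il1b, Il6, Cxcl2, Ccl2, Ccl7, Lcn2 and Bcl3 pass the floor on the banded IL-18 null array alone, while Nfkbiz, Ptgs2 and Socs3 are second highest on sham wild type.

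Genes of interferon-γ induction and response had 29 of 31 on the array, and 14 reached 64. In IL-18 null banding 2 of 14 were higher and 0 lower (median 0.21), against 6.98% and 2.53% of all genes and a median of 0.08. In wild-type banding 1 of 13 was higher and 3 lower (median -0.35), against 21.7% and 12.8% and a median of -0.08. With so few genes, neither count was read as a result about the list. After quantile normalization the counts were 2 and 1 of 14, and 1 and 6 of 14. Irf1, a transcription factor induced by interferon, was at 117.8 in sham wild type, 669.5 in banded wild type, 288.4 in sham IL-18 null and 857.5 in banded IL-18 null, higher in the banded heart of each genotype. Cxcl10, an interferon-induced chemokine, was at 54.3, 18.8, 31.4 and 272.7, the order seen for Il6 in that only the last array passed the floor. The lower genes in wild type were Jak2 (-1.90, a bound), a receptor-bound kinase, Gbp3 (-1.82), a guanylate-binding protein, and Il15 (-1.20), a cytokine for NK cells. The genes that act with IL-18 upstream of Ifng, namely Il12a, Il12b, both IL-12 receptor chains, Stat4 and Tbx21, lay under 64 on all 4 arrays. So did Nos2 and Ciita, which interferon-γ induces. The receptor genes Ifngr1 and Ifngr2 were measured on all arrays, with values from 161.9 to 205.2 and from 88.0 to 96.9. The other Ifngr2 probe set entered in wild-type banding, where it was at least 2-fold higher.

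Il1b and Pycard are expressed by myeloid cells, so marker lists were read beside them. Of macrophage and monocyte markers, 11 of 16 on the array reached 64. Their summed intensity was 4514.9 in sham wild type, 6876.3 in banded wild type, 4309.6 in sham IL-18 null and 11380.0 in banded IL-18 null, highest where Il1b was highest. In IL-18 null banding 6 of 10 passed 2-fold upwards and 0 downwards (5 and 0 after either scaling), against 6.98% and 2.53% of all genes. All 6 were at or above 64 on both IL-18 null arrays. In wild-type banding 5 of 10 were higher and 0 lower (3 and 1 after quantile normalization), against 21.7% and 12.8% of all genes, and 3 of the 5 entered through banded wild type alone. Csf1r, the macrophage growth factor receptor, was at 1380.0, 867.1, 810.1 and 1692.3 in sham wild type, banded wild type, sham IL-18 null and banded IL-18 null. Adgre1, which encodes a macrophage surface receptor, was at 225.1, 182.6, 175.4 and 268.7. Cd14, the co-receptor for lipopolysaccharide, was at 73.3, 71.9, 72.0 and 1885.6, so that its single high array was that of Il1b. Mpeg1, a macrophage pore protein, was at 1.91 with banding in IL-18 null and at -0.51 in wild type. C1qb, a complement chain, was higher with banding in both, at 2.06 in IL-18 null and 1.10 in wild type. In the same order, C1qc (1.46 and at least 3.40), Fcgr3 (1.83 and at least 1.14) and Lyz2 (0.93 and 1.62) were higher in both as well. After quantile normalization C1qb was at 0.78 and Fcgr3 at 0.69 in wild type. C1qa, another complement chain, was under 64 on all arrays but banded wild type (366.9). The listed genes thus did not share 1 order of the arrays. Fcgr1, Itgam, Ccr2 and Cd163 lay under 64 on every array. In tissue RNA, more cells of a type and more RNA per cell cannot be told apart.

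Of neutrophil markers 3 of 8 reached 64, with summed intensities of 1304.7, 306.9, 798.0 and 1236.3 in the same order. S100a8 and S100a9 were high on sham wild type (203.4 and 679.8) as well as on banded IL-18 null (269.0 and 712.4). Cxcr2, the other marker that reached 64, was at 384.3, 205.4, 277.1 and 221.2, lower in the banded array of each genotype. The defining granule genes Camp, Ngp, Ltf and Mmp8 lay under 8 on every array. Fibroblast markers, 9 of 10 of which reached 64, had summed intensities of 10826.7, 26130.8, 14064.5 and 38924.5, higher in both banded arrays. In wild-type banding 6 of 9 were at least 2-fold higher and 0 lower, against 21.7% and 12.8% of all genes. In IL-18 null banding the counts were the same, against 6.98% and 2.53%. After quantile normalization 4 and 5 were higher. Pdgfra was lower in both banded arrays, at 741.2, 484.8, 633.8 and 354.3. Dpt was lower with banding in wild type (-0.35) and higher in IL-18 null (0.43). The part of these cell types in the members' differences was not tested.

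T and NK cells are the cells best known for answering IL-18 with interferon-γ. Only Cd4 and Cd3e among 13 of their markers reached 64, Cd4 on all 4 arrays and Cd3e on sham wild type alone (89.5). Gzma, Gzmb, Prf1, Nkg7 and Ncr1 lay under 10 throughout. Mast cell and B cell markers stayed under 64 on all arrays (0 of 7 and 0 of 4). All 11 cardiomyocyte markers were at or above 64 on every array. In IL-18 null banding 0 of 11 were past 2-fold, where 6.98% of all genes were higher and 2.53% lower. In wild-type banding 3 of 11 were higher and 0 lower, against 21.7% and 12.8% of all genes. These 3 were Mybpc3 (4.13), Mb (1.23) and Ttn (1.05, or 0.85 after quantile normalization). Between the sham hearts 2 of 11 were higher in IL-18 null, Mybpc3 (3.45) and Mb (1.08), and 0 lower, against 16.3% and 6.29%. With so few genes, these counts were not read as a result about the list. For all 3 genes sham wild type was the lowest array. The atrial genes Myl4, Myl7 and Sln summed to 1551.6, 3919.0, 1764.9 and 2097.2, highest in banded wild type.

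**Figure D4:**
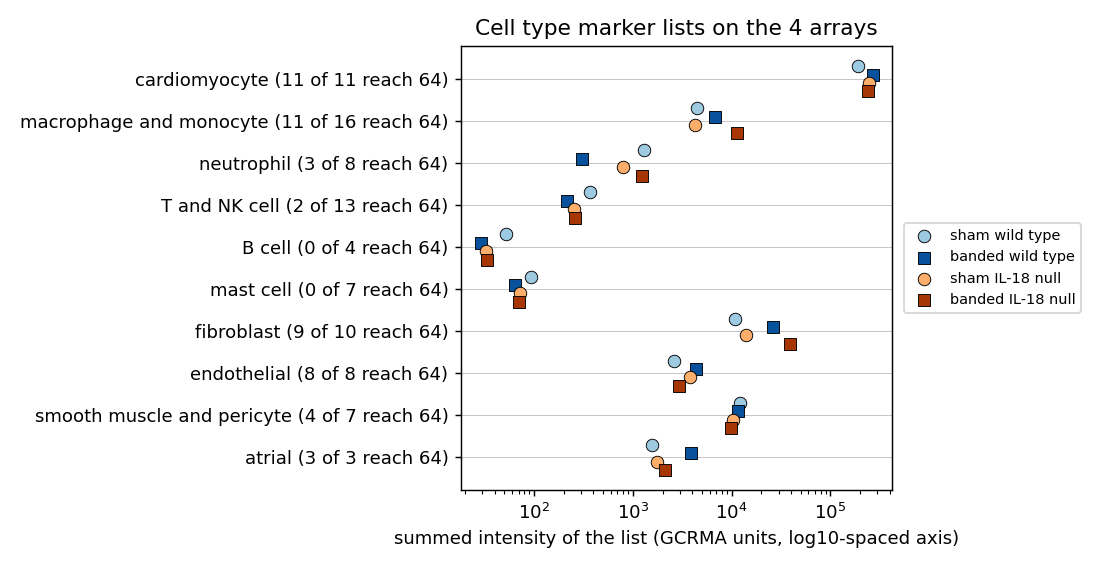
Summed intensity (GCRMA units, log10-spaced axis) of 10 cell type marker lists on the 4 arrays, 1 point per pooled array, with the number of genes that reached 64 on any array out of those on the array. The sums of macrophage and fibroblast markers are highest on banded IL-18 null, at 11380.0 and 38924.5, and no mast cell or B cell marker reached the floor.

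The probe sets most like each varying member were found among those of other genes by the root mean square distance of centred, floored log2 values over the 4 arrays. For Il1b they were Timp1, an inhibitor of metalloproteinases (0.02), Il6 (0.04) and Cd14 (0.12). Timp1 was at 4.5 in sham wild type, 33.2 in banded wild type, 4.1 in sham IL-18 null and 1327.3 in banded IL-18 null. Cd14, given above, was flat on 3 arrays with values just above the floor. The closeness of Timp1 and Il6 follows in part from the floor, which sets their 3 low arrays equal.

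For Pycard the nearest were Ptpn12, a tyrosine phosphatase (0.05), Rtn4, a protein of the endoplasmic reticulum (0.06), and Hmgcs1, an enzyme of cholesterol synthesis (0.06). Hmgcs1 was at 680.1, 445.7, 364.1 and 1001.7 in the order used above, with sham wild type second highest and sham IL-18 null lowest, as for Pycard. For Il1r1 the nearest were Mllt11 (0.04), Ppp1r15b, a regulator of the phosphatase that acts on eIF2α (0.06), and Smc4, a condensin subunit (0.07). Mllt11 was at 125.3, 93.0, 119.5 and 212.6. These names are a description over 4 arrays and 20380 probe sets.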

How the data were processed

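Total RNA of left ventricle, pooled by group, was hybridised to 4 arrays with biotin label, 1 per group; groups were taken from the labels. The authors deposited intensity values per probe set on a linear scale, computed with GCRMA per the submitters' processing notes. Its version, the scanner settings and any later scaling are not given in the sources used here. The linear scale was read from the values, 1.5 to 43811.1. The number of arrays limits the precision.

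Of 22690 probe sets, 20380 had 1 gene symbol in the platform annotation; 691 with several, 1555 with none and 64 controls were left out. Gene identifiers of 20351 matched RefSeq (GRCm38.p6), and 0 symbols changed. Log2 values were floored at 6 (64 units) and 2-fold differences were counted without a test. Lists used 1 probe set per gene, the one with the highest mean. The additive fit used limma 3.58.1 (R 4.3.3; lmFit, eBayes with trend) on unfloored log2 values, with Benjamini-Hochberg adjustment over 7366 probe sets and a threshold of 0.05. The counts and the fit were tested on simulated data. These had noise set from the IL-18 null arrays and the same banding effect in both genotypes. They cannot show how the counts and the fit do where the banding responses differ between genotypes. Python 3.11.15 did the rest.

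Alternatives were floors at log2 5 and 7 and none, quantile normalization, cyclic loess, a 1.5-fold threshold, leaving out probe sets with a letter suffix in their ID, 1 probe set per gene, and, for the fit, no trend, an adjusted p of 0.1 and no filter. The scaling alternatives for gene lists were added after seeing the data. The members and lists were chosen with earlier results of these data known. Named genes were all member probe sets, the 3 nearest probe sets of each varying member, and up to 12 genes per list at least 2-fold in either banding comparison. Other genes named were chosen after their values were seen.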

Additional observations from a re-analysis of the deposited data

Results flagged for a closer look

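Il1r1 and Pycard were flagged because their banding differences had opposite signs in the genotypes. The difference in IL-18 null minus that in wild type was 1.31 (log2) for Il1r1 and 1.95 for Pycard (1417346_at). Among the genes of the 5 pathway lists that entered in both comparisons, opposite signs at least 1 apart were found, with IL-18 null the more positive, for Nfkbiz (6.72), Socs3 (5.57), Ptgs2 (3.85), Jak2 (2.78), Gbp3 (1.98), Casp8 (1.82), Map2k4 (1.67), Peli1 (1.51), Nfkbia (1.86), Igtp (1.42), Ikbkg (1.26), Ikbkb (1.25), Gbp2 (1.25), Mapk8 (1.23) and Tab2 (1.00). They were found with wild type the more positive for Txnip (-3.89), Ube2v1 (-2.60), Jak1 (-1.93), Tollip (-1.68) and Ube2n (-1.06). Each rests on 1 array per group and the difference was not tested. Each is also that of the gene's brightest probe set. For Tab2 the other probe set that entered had the opposite signs. With banding it rose past 2-fold in wild type and fell past 2-fold in IL-18 null. In every list gene named with IL-18 null the more positive, sham wild type was higher than sham IL-18 null as well. The same held for Pycard (152.9 and 89.9), while for Il1r1 the sham values were close (100.9 and 99.5). In each gene with wild type the more positive, sham wild type was the lowest array. The sham wild-type array thus enters all of these values.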

How the results depend on the processing

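Quantile normalization moved the median wild-type banding difference of all probe sets from -0.02 to -0.34 and the sham genotype difference from -0.05 to -0.26, and cyclic loess moved them to 0.16 and 0.05. In the same comparisons quantile normalization made 1 member (Pycard) 2-fold lower instead of 0, in wild-type banding and between sham hearts; a 1.5-fold threshold also gave 1 lower between sham hearts. A floor at log2 7 left 1 member higher in IL-18 null banding instead of 2, and 1 instead of 3 between banded hearts. Leaving out probe sets whose ID has any letter suffix removes those of Il1b and Il18bp and left 1 higher in IL-18 null banding; their suffix, _a_at, marks transcripts of the same gene. No member carries the suffixes for matches to other genes (_s_at, _x_at), and leaving those out, added after seeing the data, changed no member count. Il1b was past 2-fold in IL-18 null under all floors and scalings tried, with log2 differences from 3.42 to 4.74. The additive fit called 64 probe sets for surgery and 9 for genotype after quantile normalization, and 245 and 92 with no filter, with 0 members among them in each case; the cause was not tested. No paired analysis was possible because each group has 1 array and the labels give no replicate numbers. Values under 64 limit what can be said of Il18, Il18r1, Il18rap, Il18bp, Casp1 and Ifng.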
